A study of Mus musculus with 9 samples.

Results

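Globin and heme synthesis genes were followed in cells of the mouse thyroid. The 6 genes were taken by name from a list: the alpha globins Hba-a1 and Hba-a2, the beta globins Hbb-bs and Hbb-bt, Alas2 and Bpgm. All 6 were found among the 52636 genes of the count table through their Ensembl identifiers. They were read in the labels Eryth1 (997 cells) and Eryth2 (1092 cells), and as free globin RNA in the 8097 cells of the other 14 labels, of 10186 cells in all.

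Hemoglobin is a tetramer of alpha and beta globin chains, each holding a heme group. Alas2, the erythroid form of aminolevulinate synthase, makes the first committed intermediate of heme in the mitochondrion and sets the rate of the pathway in red cell precursors. Bpgm, bisphosphoglycerate mutase, makes the red cell metabolite that lowers the affinity of hemoglobin for oxygen. Red cells lose their nucleus and then their RNA as they mature, and in a solid tissue they come with the blood in its vessels. When red cells break during tissue dissociation, their globin RNA can enter the droplets of other cells.

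The study treated male C57BL/6 mice with antibodies that block Notch signaling and took the thyroid 7 days after 1 intraperitoneal injection. The RW group received an anti-ragweed isotype control antibody at 40 mg/kg, the aJ1aJ2 group anti-Jag1 and anti-Jag2 at 20 mg/kg each, and the aN1aN2 group anti-Notch1 at 5 mg/kg and anti-Notch2 at 10 mg/kg. The ages are given as 10 to 14 weeks in one place of the labels and as 10 to 12 weeks in another. Each group has 3 samples, each a pool of 6 mice dissociated with Liberase and run on the 10x platform with 3′ counting of unique molecular identifiers (UMIs), and the pool is the replicate (RW 1, 2 and 3, aJ1aJ2 1, 3 and 4, aN1aN2 1, 2 and 3).

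The samples held 583 to 1805 cells and 3013324 to 11880793 UMIs each. The numbers in the sample names fall into 3 series: RW 3 and aJ1aJ2 1 belong to the first, the other RW and aJ1aJ2 samples to the second, and all aN1aN2 samples to a series of their own. Whether aN1aN2 differs from the other groups by its treatment or by its series therefore cannot be told apart. RW 3 and aJ1aJ2 1 had fewer cells of the erythroid labels than the other samples (107 and 106, against 212 to 329). Of the 10171 distinct barcodes, 15 occurred in 2 libraries, and in 4 of these 1 of the 2 cells was erythroid.

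The erythroid labels fit their markers. Of 16 listed erythroid markers found in the table, 14 were higher in at least 1 erythroid label than in every other label. In Eryth1 alone some of them, Car2 and Bnip3l included, stood below another label. Together the markers stood at 916 counts per 1000000 UMIs of the same cells (CPM) in Eryth1 and 3583 in Eryth2. Of 12 listed regulators of red cell formation and survival, 7 had no UMI in Eryth1 and 7 had none in Eryth2. Gata1, Klf1 and Epor were at 0 in both labels. The 12 together stood at 7.60 CPM in Eryth1 and 12.9 in Eryth2. Most of this was Lmo2, at 3.13 and 11.3, against 283 in EC3. All 8 listed neutrophil markers were also at 0. The median cell held 1682 UMIs from 50 genes in Eryth1 and 7944.5 UMIs from 90 genes in Eryth2, against 2811 UMIs in the other labels.

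The promoters of the 6 genes are shown because the beta globin copies differ more there than in their coding sequence. Hbb-bt, Alas2 and Bpgm also differed between Eryth1 and Eryth2, where the other globins barely did. Each run is the 120 bases before the transcription start, 5′ to 3′ on the gene's own strand, from RefSeq on GRCm38.p6: chr11:32283552-32283671 (plus strand) for Hba-a1, chr11:32296372-32296491 (plus) for Hba-a2, chr7:103827929-103828048 (minus) for Hbb-bs, chr7:103813924-103814043 (minus) for Hbb-bt, chrX:150547297-150547416 (plus) for Alas2 and chr6:34476236-34476355 (plus) for Bpgm. Capitals mark matches, on either strand, to the CACCC box that Krüppel-like factors bind, to the CCAAT box, to TATAA as the core of the TATA box, and to AGATAA as a site of GATA factors. A run of GGGTG is the CACCC box on the opposite strand, ATTGG is the CCAAT box there, and TTATCT is the GATA site there.
Hba-a1: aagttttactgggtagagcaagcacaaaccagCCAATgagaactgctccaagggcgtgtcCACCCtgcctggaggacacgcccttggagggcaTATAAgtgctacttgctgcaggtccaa
Hba-a2: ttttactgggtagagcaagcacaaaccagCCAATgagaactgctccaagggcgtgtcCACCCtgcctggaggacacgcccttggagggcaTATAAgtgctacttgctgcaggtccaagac
Hbb-bs: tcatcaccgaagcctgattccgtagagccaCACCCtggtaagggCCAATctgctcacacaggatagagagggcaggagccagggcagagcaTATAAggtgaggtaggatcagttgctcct
Hbb-bt: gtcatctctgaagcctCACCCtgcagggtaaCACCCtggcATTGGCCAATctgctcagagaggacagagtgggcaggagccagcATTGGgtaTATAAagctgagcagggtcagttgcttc
Alas2: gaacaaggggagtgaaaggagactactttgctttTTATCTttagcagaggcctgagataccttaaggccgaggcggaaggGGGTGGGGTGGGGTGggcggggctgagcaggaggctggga
Bpgm: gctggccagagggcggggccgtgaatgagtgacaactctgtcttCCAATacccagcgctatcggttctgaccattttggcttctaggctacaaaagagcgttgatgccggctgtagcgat

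All 4 globins carried a CACCC box, a CCAAT box and a TATA box in this window. Hbb-bt had the CACCC box at 2 places and the CCAAT box on both strands, where Hbb-bs had 1 of each. Alas2 held 3 CACCC boxes on the opposite strand, the only GATA site among the members and no TATA box. Bpgm held only the CCAAT box. Across 32851 RefSeq promoters, windows of the same length held the CACCC box in 31.7%, the CCAAT box in 21.3%, TATAA in 11.8% and AGATAA in 4.36%. A search for TGATAA, held by 3.55% of promoters, found no match in the members. These are letter matches in a window and not measured binding.

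On GRCm38 the GENCODE annotation places Hba-a1 at chr11:32283511-32284465 and Hba-a2 at chr11:32296489-32297298 on the plus strand. Hbb-bt lies at chr7:103812524-103813996 and Hbb-bs at chr7:103826534-103828096 on the minus strand, Alas2 at chrX:150547375-150570638 and Bpgm at chr6:34476207-34505613 on the plus strand. The windows above overlap these gene models or lie inside them, since each model begins upstream of the RefSeq start. The promoters of the alpha pair matched at 117 of 123 aligned positions (95.1%). The unmatched positions are the ends of windows that are shifted against each other, and the shared 117 bases are identical. Those of the beta pair matched at 93 of 124 positions (75%).

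The coding sequences of the pairs are nearly identical, with 428 of 429 bases the same in Hba-a1 and Hba-a2 and 443 of 444 in Hbb-bs and Hbb-bt. In the last 300 bases of the transcripts, where 3′ reads fall, 57.3% of the 90-base windows of Hba-a1 also occurred in Hba-a2, and 24.6% of those of Hbb-bs also occurred in Hbb-bt. How reads were divided between copies is not given in the sources used here, so values of single copies are uncertain, those of the alpha pair most of all. It is also not given whether reads that match both copies were counted. If they were not, the sums of the pairs and the alpha share depend on this as well.

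Globin RNA made up 93.1% of all UMIs in Eryth1 and 96.6% in Eryth2. The summed globins stood at 8414 CPM or lower in each of the other labels. The highest of them were the endothelial label EC1 at 8414, the thyrocyte label Th3 at 4812 and EC2 at 4283, and the lowest was P at 240. That order rested on 29 cells with over 10% of their UMIs from globin, described further on. Without them the highest were Th2 at 2437, EC4 at 1189 and EC2 at 935, with Th3 at 817, EC1 at 604 and P still the lowest. No label was free of globin UMIs.

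Alas2 and Bpgm did not share that range. Alas2 stood at 1702 CPM in Eryth2 and 844 in Eryth1, then at 10.8 in EC1, 9.70 in the fibroblast label F and 8.29 in EC2. Without the 29 cells these were 0.410, 0.608 and 2.58, from 2 to 4 UMIs each. It had no UMI in M, SM, T1 and Th2. Bpgm stood at 1076 in Eryth2 and 94.4 in Eryth1, followed by 51.7 in S, 34.4 in T2 and 32.4 in EC3. It was found in every label except Th2, whose total allows up to 17.1 CPM. Without the 29 cells it was 51.7 in S, 33.0 in T2, 32.4 in EC3 and 19.5 in EC1.

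**Figure D1:**
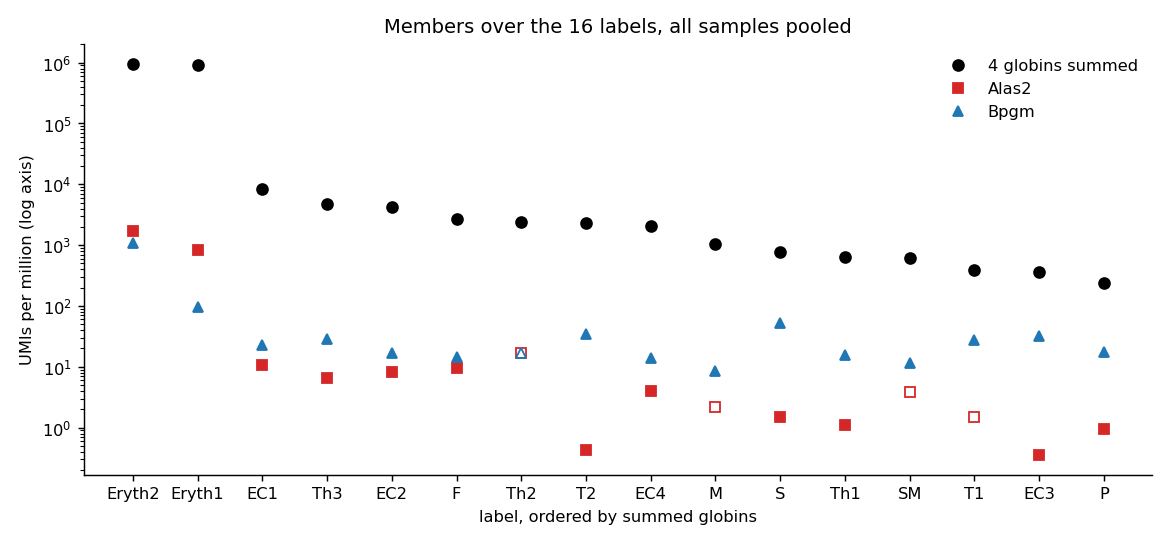
Level of the 4 globins summed, of Alas2 and of Bpgm in CPM (log axis) over the 16 labels, all samples pooled. Open markers are labels with no UMI, drawn at the level of 3 counts; the erythroid labels stand far above the rest for globin and Alas2, while Bpgm is 94.4 in Eryth1 and 51.7 in S.

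Across the 16 labels, the log2 level of Alas2 followed that of the summed globins with a Pearson correlation of 0.951, and Bpgm with 0.615. The labels share libraries and depth, so these values only describe the pattern. Among 463 genes with at least 50 UMIs in the erythroid labels, the 5 most like the summed globins were Rec114 (0.929), Hbq1a (0.918), Cyp4b1-ps2 (0.914), Hbq1b (0.907) and Hba-ps4 (0.902). Those most like Alas2 were Hbq1a (0.928), Cyp4b1-ps2 (0.924), Hbq1b (0.921), Tspo2 (0.918) and Apol11b (0.918). Hbq1a and Hbq1b, theta globin genes, are in both lists, and Hba-ps4 is an alpha globin pseudogene.

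Eryth1 and Eryth2 differed in which beta globin they held, in Alas2 and most of all in Bpgm. The labels were set by the authors from these same cells, so the differences between them are described and not tested. Hbb-bt, the minor adult beta globin here, made up 1.95% of UMIs in Eryth1 and 8.93% in Eryth2. Hbb-bs, the major one, made up 50.5% and 52.4%. The alpha globins were slightly lower in Eryth2, Hba-a1 at 20.5% against 24.1% and Hba-a2 at 14.7% against 16.5%.

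Hbb-bt in Eryth1 made up 2.12%, 1.92% and 1.53% of UMIs in RW 1, 2 and 3, 1.55%, 1.89% and 2.09% in aJ1aJ2 1, 3 and 4, and 2.27%, 2.04% and 1.54% in aN1aN2 1, 2 and 3. In Eryth2 it made up 9.27%, 9.55% and 9.45% in RW, 8.94%, 9.52% and 9.97% in aJ1aJ2, and 7.53%, 8.09% and 7.73% in aN1aN2. Every Eryth2 value lay above every Eryth1 value. The mean log2 ratio of Eryth2 to Eryth1 over the 9 samples was 2.25 ± 0.27 (SD, n = 9) for Hbb-bt.

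The ratios of the other globins were small. They were 0.06 ± 0.06 for Hbb-bs (higher in Eryth2 in 7 of 9 samples), -0.25 ± 0.06 for Hba-a1 and -0.18 ± 0.07 for Hba-a2 (lower in all 9 samples each). Shares of a total that is nearly all globin cannot rise together. Set against the UMIs of all other genes instead, all 4 globins were higher in Eryth2, by a log2 ratio of 0.69 for Hba-a1, 0.76 for Hba-a2, 1.00 for Hbb-bs and 3.18 for Hbb-bt. The direction of the alpha globins between the labels therefore turns with the denominator, and that of Hbb-bt does not.

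Within globin, the alpha chains made up 41.8% to 46.9% of UMIs in Eryth1 and 35.0% to 37.9% in Eryth2 over the samples, with no overlap. Hbb-bt made up 2.87% to 4.34% of beta globin UMIs in Eryth1 and 12.2% to 16.3% in Eryth2. Single cells spread more widely and overlapped: the median cell had 2.10% of its beta globin from Hbb-bt in Eryth1 (0.420% to 8.95% from the 5th to the 95th percentile) and 13.9% in Eryth2 (4.10% to 20.9%).

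Alas2 in Eryth1 stood at 740, 700 and 773 CPM in RW 1, 2 and 3, 698, 923 and 877 in aJ1aJ2 1, 3 and 4, and 1106, 941 and 979 in aN1aN2 1, 2 and 3. In Eryth2 it stood at 1446, 1486 and 1557 in RW, 1825, 1370 and 1282 in aJ1aJ2, and 2460, 2065 and 2063 in aN1aN2. It was higher in Eryth2 in every sample, by a mean log2 ratio of 0.99 ± 0.27 (SD, n = 9). The mean cell held 1.89 Alas2 UMIs in Eryth1 and 13.4 in Eryth2.

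Bpgm in Eryth1 stood at 86.3, 108 and 42.5 CPM in RW, 115, 99.0 and 81.2 in aJ1aJ2, and 167, 65.5 and 56.9 in aN1aN2. In Eryth2 it stood at 1060, 1029 and 1297 in RW, 838, 1179 and 1272 in aJ1aJ2, and 957, 1027 and 983 in aN1aN2. The log2 ratio, 3.65 ± 0.72 (SD, n = 9), was the largest of the 6 members and positive in every sample. The Eryth1 values are noisy, since the mean Eryth1 cell held only 0.212 Bpgm UMIs.

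**Figure D2:**
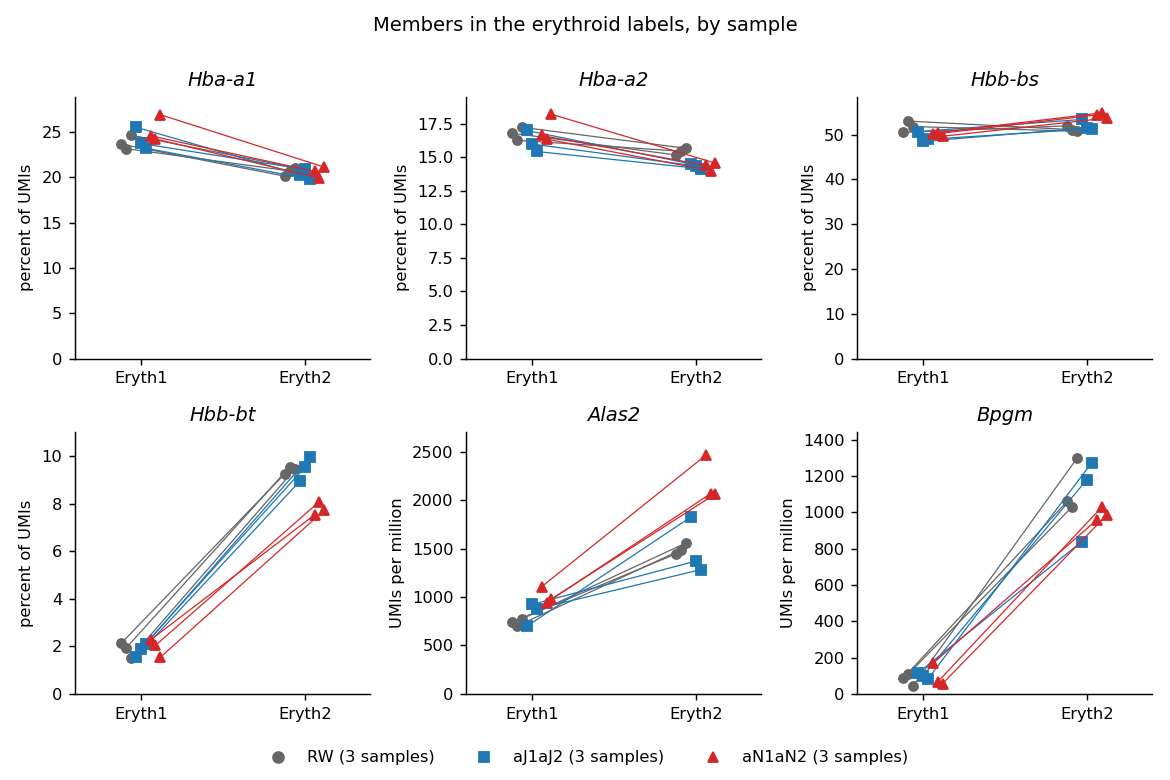
Each of the 6 genes in Eryth1 and Eryth2, with 1 line per sample colored by group; globins are in percent of UMIs, Alas2 and Bpgm in CPM. Lines for Hbb-bt, Alas2 and Bpgm rise in all 9 samples, those for Hba-a1 and Hba-a2 fall in all 9.

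After each cell was thinned to 500 UMIs, 60.8% of Eryth2 cells and 29.9% of Eryth1 cells had an Alas2 UMI, and 0.148% of cells of other labels did (99.7% and 58.5% unthinned in the erythroid labels). For Bpgm the shares were 35.3%, 4.01% and 0.877% (82.1% and 13.9% unthinned in the erythroid labels). Hbb-bt had a UMI in 99.9% of Eryth2 cells, 95.4% of Eryth1 cells and 3.22% of others. The order of the labels at equal depth was the same as that of the levels.

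Since Eryth2 cells were deeper, the members were also followed within classes of UMIs per cell. In Eryth1 the share of Hbb-bt in beta globin was 2.40% at 500 to 1000 UMIs, 2.48% at 1000 to 2000, 2.93% at 2000 to 4000 and 4.58% at 4000 to 8000. In Eryth2 it was 12.1%, 11.6%, 10.0% and 11.3% over the same classes and 15.9% at 8000 to 16000, so each Eryth2 class lay above each of these Eryth1 classes. In 8 deeper Eryth1 cells, at 8000 to 16000 UMIs, it was 10.6%. Alas2 in Eryth2 went the other way, from 3666 CPM in the shallowest class (23 cells) through 2519, 2343 and 1869 to 1584 at 8000 to 16000 (522 cells), with 1637 in 16 deeper cells. In Eryth1 it was between 674 and 889 in the 4 classes below 8000 UMIs and 1234 in the 8 deeper cells. Globin made up 78.4% of the UMIs of these 8 cells, against 95.8% in Eryth1 cells of 4000 to 8000 UMIs. Whether they held RNA of other cells was not tested.

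Bpgm in Eryth2 stood at 887, 624, 583 and 623 CPM in the 4 lower classes and at 1245 at 8000 to 16000. In Eryth1 it was between 62.7 and 99.2 in the 4 classes below 8000 UMIs and 512 in the 8 cells at 8000 to 16000. Eryth2 cells with more Hbb-bt also held more Bpgm: over 6 classes of rising Hbb-bt share, Bpgm went 257, 269, 384, 986, 1300 and 1703 CPM, while the median UMIs per cell went from 2865 to 11589.5. Restricting both labels to cells of 2000 to 8000 UMIs left log2 ratios of 1.72 ± 0.17 for Hbb-bt, 0.83 ± 0.26 for Alas2 and 3.37 ± 1.03 for Bpgm (SD, n = 9).

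**Figure D3:**
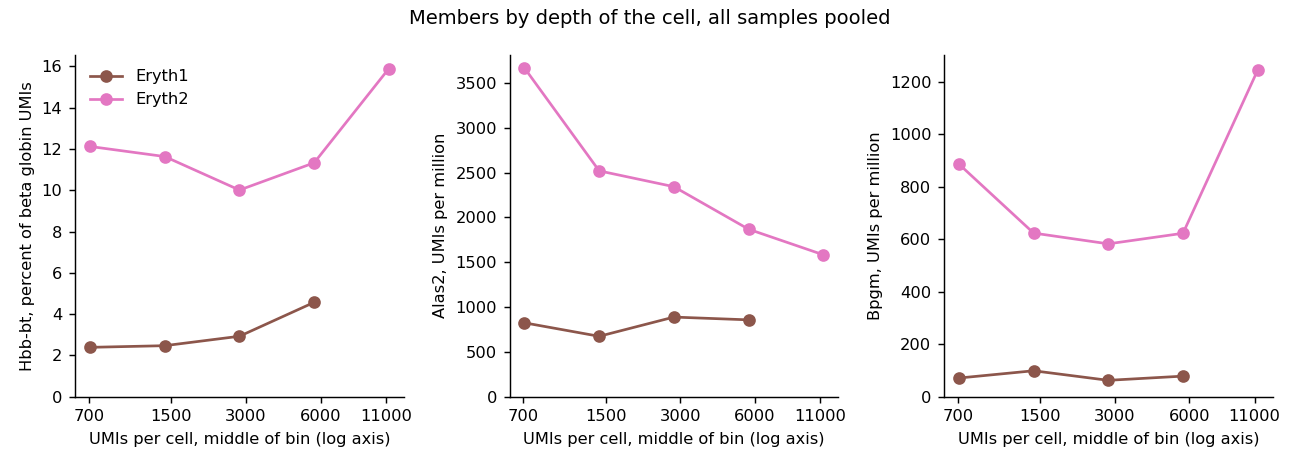
Hbb-bt as percent of beta globin UMIs, Alas2 and Bpgm in CPM, by class of UMIs per cell in Eryth1 and Eryth2 (classes of at least 20 cells, samples pooled). Eryth2 lies above Eryth1 in every class; Alas2 in Eryth2 goes from 3666 in the shallowest class to 1584 in the class of 522 cells.

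The rest of the heme pathway was sparse. Of 11 other heme synthesis and transport genes in the table, 4 were higher and 6 lower in Eryth2 (6 and 4 against the UMIs of genes other than globin), and together they went from 174 to 402 CPM. Most of that was Fech, ferrochelatase, which inserts iron into the porphyrin ring (81.4 to 250 CPM), and Slc25a37, mitoferrin, which carries iron into the mitochondrion (77.8 to 140). Urod, an enzyme in the middle of the pathway, went from 1.79 to 7.67. Alas1, the form of aminolevulinate synthase used outside red cells, went from 4.03 to 0.233.

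Among 16 iron handling genes, 3 were higher and 5 lower in Eryth2, or 4 and 4 against the UMIs of genes other than globin. The ferritin light chain gene Ftl1 went from 1121 to 1037 CPM and the heavy chain gene Fth1 from 240 to 303. As for the alpha globins, the denominator decides the direction of Ftl1: set against 1000000 UMIs of genes other than globin it went from 16171 to 30430. Slc48a1, a heme transporter, went from 11.2 to 62.9 and Blvrb, a biliverdin reductase, from 23.7 to 61.3. Of 10 other globin genes, 3 were higher and 2 lower in Eryth2 (4 and 1 by the other denominator), and their levels were low: Hbq1a went from 32.7 to 29.2 (from 471 to 856 against the UMIs of genes other than globin) and Hbq1b from 4.47 to 10.2.

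Genes that persist late in red cell maturation were higher in Eryth2 for the most part, 20 of 24 with 3 lower (23 and 0 against the UMIs of genes other than globin), and went from 1997 to 5439 CPM in sum. Ubb, a ubiquitin gene, stood at 1049 and 1077, while Mkrn1, an E3 ubiquitin ligase (88.1 to 951), and Gpx1, a glutathione peroxidase (26.4 to 717), made up much of the difference. Of 16 red cell membrane genes, 14 were higher in Eryth2, and 15 by that other denominator. Epb41, protein 4.1 of the membrane skeleton, went from 111 to 176 and Slc4a1, the band 3 anion exchanger, from 0.895 to 20.6. Aqp1, a water channel that endothelium also makes, was higher in Eryth1 (20.6 against 0.581).

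Transcripts of other thyroid cells were higher in Eryth1. Thyrocyte markers made up 1226 CPM there and 153 in Eryth2, with 9 of 10 higher in Eryth1, and over the samples they ranged from 143 to 3193 in Eryth1 and from 96.8 to 266 in Eryth2. Thyroglobulin, Tg, accounted for 1162 and 144 of these, against 92030 in Th1. Endothelial markers stood at 89.9 and 12.6 with all 8 higher in Eryth1, and nuclear RNAs at 324 and 25.1, of which Malat1 gave 289 and 20.3. The part of these transcripts in the differences between the labels was not tested.

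No member passed the test between treatment groups in either erythroid label. Sums of counts per sample and label were compared with edgeR's quasi-likelihood test over all genes that passed a filter on low counts, with Benjamini-Hochberg adjustment and a threshold of 0.05, and all 6 members passed the filter. The comparisons of aJ1aJ2 and of aN1aN2 with RW share the RW samples. In Eryth1, 143 genes were tested and 0%, 7.69% and 6.29% of them were called for aJ1aJ2 against RW, aN1aN2 against RW and aN1aN2 against aJ1aJ2 (7, 27 and 26 genes at an unadjusted 0.05). In Eryth2, 279 genes were tested and 0.358%, 8.6% and 9.32% were called (15, 78 and 72 genes unadjusted). DESeq2 called no member either, beside 0%, 7.17% and 8.96% of the Eryth2 genes and 0%, 7.69% and 6.29% of the Eryth1 genes.

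Alas2 came nearest to the threshold. In Eryth2 the 3 aN1aN2 samples, at 2063 to 2460 CPM, lay above all RW samples (1446 to 1557) and all aJ1aJ2 samples (1282 to 1825). The log2 difference was 0.64 (SE 0.24, edgeR adjusted p = 0.104) against RW and 0.62 (SE 0.24, adjusted p = 0.135) against aJ1aJ2. It was 0.02 (adjusted p = 0.999) between aJ1aJ2 and RW. In Eryth1 the difference of Alas2 between aN1aN2 and RW was 0.27 (SE 0.32, adjusted p = 0.769), and the change in Eryth2 minus that in Eryth1 was 0.46 (SE 0.29, adjusted p = 0.795), with none of 321 genes called for that difference of changes in any comparison of the groups.

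Erythroid cells of aN1aN2 held fewer globin UMIs each. The cells of its other labels were shallower too, with a median of 1650 to 1981 UMIs against 2693 to 4017 in the samples of RW and aJ1aJ2. Globin UMIs per Eryth2 cell were 5985 ± 414 in aN1aN2, 8894 ± 1327 in RW and 9106 ± 830 in aJ1aJ2 (SD, n = 3 each), and per Eryth1 cell 1637 ± 13.7, 2506 ± 209 and 2124 ± 245. The aN1aN2 samples did not overlap the others in either label (exact permutation test, two-sided, p = 0.1, the smallest that 3 against 3 samples allow, adjusted p = 0.2). The comparison was therefore repeated in cells of 2000 to 8000 UMIs, a range chosen after the data were seen (415 Eryth1 and 475 Eryth2 cells).

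In that range the median depth of Eryth2 cells was 5402 to 5702 UMIs in aN1aN2 and 4869 to 6436.5 in RW, while that of Eryth1 cells was still lower in aN1aN2 (2783 to 3065 against 3523 to 4149). Alas2 in Eryth2 stood at 1411, 1362 and 1233 CPM in RW 1, 2 and 3, 1930, 1289 and 1434 in aJ1aJ2 1, 3 and 4, and 2538, 2118 and 1907 in aN1aN2 1, 2 and 3. Only aJ1aJ2 1 reached the range of aN1aN2. The log2 difference was 0.77 (SE 0.25, edgeR adjusted p = 0.0316, with 19.6% of 92 genes called) against RW and 0.73 (SE 0.25, adjusted p = 0.0310, with 29.3% called) against aJ1aJ2 in a fit of all samples. With library totals in place of TMM scaling it was 0.71 (adjusted p = 0.0395, with 17.4% called) and 0.50 (adjusted p = 0.117, with 20.7% called). The minimum of 20 cells used elsewhere drops RW 3 and aJ1aJ2 1 here, and without them the differences were 0.94 (adjusted p = 0.00403, with 15.9% of 132 genes called) and 1.13 (adjusted p = 0.00129, with 25.8% called). In Eryth1 cells of that range Alas2 stood at 726, 692 and 869 in RW, 786, 884 and 928 in aJ1aJ2, and 1209, 1195 and 1177 in aN1aN2, without overlap. There the difference was 0.93 (SE 0.30, adjusted p = 0.0658, with 6.56% of 61 genes called) against RW and 0.98 (adjusted p = 0.03, with 19.7% called) against aJ1aJ2. The median of all genes in the latter was 0.44, and with library totals the difference was 0.46 (adjusted p = 0.273, with 16.4% called), so that call depends on the scaling.

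Over all alternative settings and left-out samples the difference of Alas2 in Eryth2 between aN1aN2 and RW stayed between 0.52 and 0.94, with adjusted p from 0.00403 to 0.676. It passed the threshold with library totals in place of TMM scaling (0.55, adjusted p = 0.0396, with 7.53% of genes called), in a fit of only these 2 groups (0.59, adjusted p = 0.0274, with 13% called) and in cells of 2000 to 8000 UMIs. Against aJ1aJ2 the difference stayed between 0.44 and 1.13, and it passed with library totals (0.56, adjusted p = 0.0397, with 7.17% of genes called), in cells of 2000 to 8000 UMIs under TMM scaling, and without aJ1aJ2 1 (1.01, adjusted p = 0.00206, with 12% called).

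**Figure D4:**
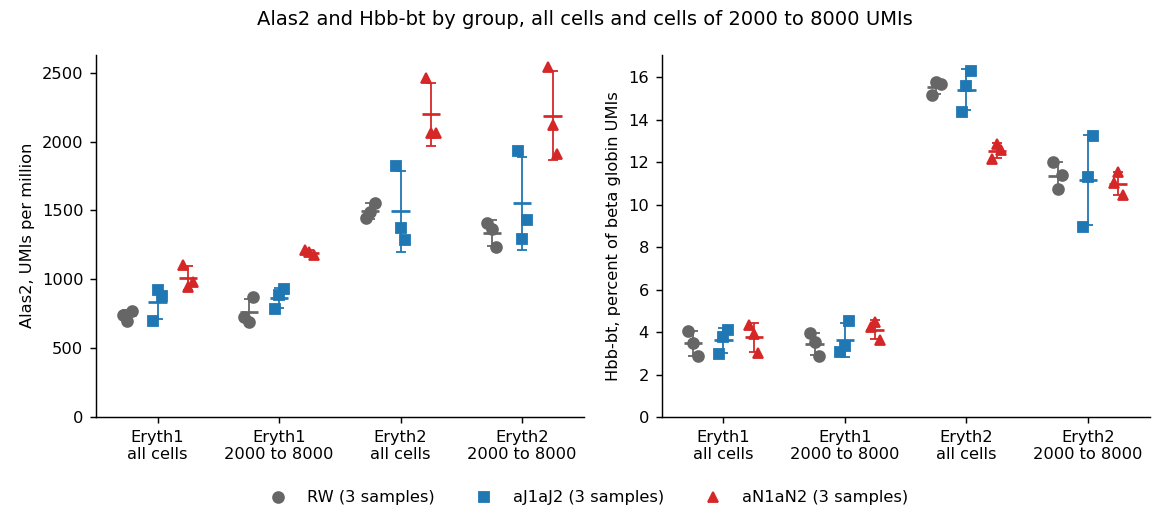
Alas2 in CPM and Hbb-bt as percent of beta globin UMIs per sample, with the mean ± SD of each group, in all cells and in cells of 2000 to 8000 UMIs of Eryth1 and Eryth2. Alas2 in aN1aN2 stays above RW within that range, while Hbb-bt in Eryth2, 12.2% to 12.9% in aN1aN2 and 15.1% to 15.8% in RW in all cells, overlaps between the groups there.

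For Hbb-bt the groups lay apart only over all cells. In Eryth2 it made up 12.2%, 12.9% and 12.6% of beta globin UMIs in aN1aN2 1, 2 and 3, against 15.1%, 15.8% and 15.7% in RW and 14.4%, 15.6% and 16.3% in aJ1aJ2. The aN1aN2 samples were below all others (exact permutation test, two-sided, p = 0.1 against each, adjusted p = 0.2). In cells of 2000 to 8000 UMIs the values were 10.4% to 11.5% in aN1aN2 and 10.7% to 12.0% in RW, which overlap. In Eryth1 the share of Hbb-bt did not separate aN1aN2 from RW (exact permutation test, two-sided, p = 0.7). Its edgeR difference in Eryth2 was -0.19 (SE 0.14, adjusted p = 0.409) over all cells. In cells of 2000 to 8000 UMIs it was 0.03 with all samples and 0.28 without RW 3 and aJ1aJ2 1, so its direction turned.

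Other globin measures differed little between groups. The alpha share of globin UMIs in Eryth2 was 36.6%, 37.4% and 37.9% in RW, 35.8%, 36.6% and 35.7% in aJ1aJ2, and 36.2%, 35.0% and 36.8% in aN1aN2, and no pair of groups in either erythroid label gave an exact permutation p under 0.2. Globin made up 95.2% to 97.1% of Eryth2 UMIs in all samples. In Eryth1 it made up 93.1%, 94.4% and 95.2% in RW, 94.8%, 90.1% and 89.7% in aJ1aJ2, and 93.5%, 93.1% and 96.3% in aN1aN2. Hba-a1 made up less of the alpha globin UMIs in RW (57.2% ± 0.17 in Eryth2, 58.7% ± 0.20 in Eryth1) than in aJ1aJ2 (58.6% ± 0.55 and 60.0% ± 0.18) and aN1aN2 (59.0% ± 0.24 and 59.7% ± 0.03; SD, n = 3, exact permutation p = 0.1 for each, adjusted p = 0.2). This split rests on the division of reads between nearly identical copies.

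In Eryth2 1 of 4 tested iron genes fell in aN1aN2: Fth1, at 198, 179 and 170 normalized CPM against 376, 376 and 319 in RW, fell by 0.97 on the log2 scale (SE 0.19, edgeR adjusted p = 0.0064) and by 0.90 relative to aJ1aJ2 (adjusted p = 0.0104). The median of the 4 was -0.46 against RW, beside -0.02 over all genes tested, of which 8.6% were called. Of 2 nuclear RNAs tested in Eryth1 1 passed, beside 7.69% of all genes. Neat1, with 67 UMIs over all Eryth1 cells, was higher in aN1aN2 than in RW (2.55, SE 0.73, edgeR adjusted p = 0.0415). The median of the 2 was 0.69, beside 0.09 over all genes tested. The 3 listed nuclear RNAs together overlapped between the groups, at 234, 239 and 44.2 CPM in aN1aN2 and 175, 502 and 63.8 in RW. Of 10 late red cell genes tested in Eryth1 1 was called lower in aN1aN2 than in RW, beside 7.69% of all genes called in that comparison, and the median of the 10 was -0.31, beside 0.09 over all genes tested. The same gene is the 1 of 8 erythroid markers called there (median -0.35).

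Neither of the heme synthesis genes that passed the filter in Eryth2 passed the test between aN1aN2 and RW. The log2 difference was 0.69 for Fech (SE 0.25, edgeR adjusted p = 0.0921) and -0.15 for Slc25a37, with a median of 0.27 beside -0.02 over all genes tested. None of 18 late red cell genes (median -0.09), 3 membrane genes and 2 other globins passed in that comparison. Between aJ1aJ2 and RW no gene of these lists passed in either label.

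The share of erythroid cells was highest in the aN1aN2 samples. Eryth1 and Eryth2 together made up 29.0%, 29.8% and 34.8% of cells in aN1aN2 1, 2 and 3, 24.8%, 24.98% and 10.2% in RW 1, 2 and 3, and 18.2%, 11.7% and 14.0% in aJ1aJ2 1, 3 and 4. The 95% Wilson intervals, which cover counting error only, ran from 8.50% to 12.2% for RW 3 and from 31.3% to 38.4% for aN1aN2 3. The aN1aN2 samples were above all others (exact permutation test, two-sided, p = 0.1 against each, adjusted p = 0.2). The difference from RW was 11.2 percentage points, and 6.35 without RW 3. These are shares of captured cells, so more erythroid cells and fewer cells of other labels cannot be told apart. Eryth1 made up 42.5% ± 3.3 of the erythroid cells in aN1aN2, 50.6% ± 4.2 in RW and 49.3% ± 1.0 in aJ1aJ2 (SD, n = 3, exact permutation p = 0.2 and 0.1, adjusted p = 0.2 for the latter).

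Outside the erythroid labels most globin UMIs came from few cells. Of 8097 cells, 29 (0.358%) had over 10% of their UMIs from globin, and these held 108394 of the 134843 globin UMIs (80.4%). The 29 cells were not shallow: their median was 8770 UMIs and 1715 genes, with 37.4% of UMIs from globin. Of them 18 lay in EC1, where they held 93.0% of the globin UMIs, 3 in T2, 2 each in Th1 and Th3 and 1 each in EC2, EC4, F and M. Every sample but aJ1aJ2 1 had at least 1. No doublet caller was run here, and whether these droplets held an additional red cell was not tested.

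With all cells, globin made up 0.135%, 0.636% and 0.107% of the other labels' UMIs in RW 1, 2 and 3, 0.0209%, 0.235% and 0.514% in aJ1aJ2 1, 3 and 4, and 0.140%, 0.373% and 0.243% in aN1aN2 1, 2 and 3. The groups overlapped widely (exact permutation test, two-sided, p = 0.9 to 1). Without the 29 cells the values were 0.0320%, 0.0848% and 0.0195% in RW, 0.0209%, 0.0380% and 0.0543% in aJ1aJ2, and 0.0852%, 0.123% and 0.135% in aN1aN2. The aN1aN2 samples then lay above all others (exact permutation test, two-sided, p = 0.1 against each), RW 2 only just below aN1aN2 1. Counted per cell, these globin UMIs were 2.84, 4.97 and 1.94 in RW, 1.80, 2.49 and 2.35 in aJ1aJ2, and 3.70, 6.14 and 5.78 in aN1aN2. By that count RW 2 lay above aN1aN2 1. In RW 2 a single Th1 cell, with 5.24% of its UMIs from globin, held 2063 of the 4872 remaining globin UMIs (42.3%). With the limit set at 1% of a cell's UMIs, which removes 75 cells in all, the values were 0.0270%, 0.0412% and 0.0135% in RW, 0.0180%, 0.0277% and 0.0352% in aJ1aJ2, and 0.0775%, 0.114% and 0.132% in aN1aN2. RW 3 and aJ1aJ2 1, the samples of the first series with the fewest erythroid cells, had the lowest values.

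The makeup of the globin in the remaining cells was compared with that of the erythroid labels. Hbb-bt made up 10.6%, 13.9% and 13.3% of its beta globin UMIs in RW, 13.6%, 12.1% and 10.2% in aJ1aJ2, and 10.8%, 9.21% and 9.63% in aN1aN2. In 9 of 9 samples this lay above the sample's own Eryth1 and below its own Eryth2. The 95% Wilson interval held the value of the sample's own Eryth2 in aJ1aJ2 1 (up to 16.8%, against 14.4%) and aN1aN2 1 (up to 12.3%, against 12.2%). The alpha share was 35.0%, 38.2% and 34.6% in RW, 36.8%, 38.2% and 42.1% in aJ1aJ2, and 28.9%, 31.3% and 28.2% in aN1aN2. In the 3 aN1aN2 samples, RW 1 and RW 3 this was below both erythroid labels of the same sample, though in RW 1 the interval of 33.2% to 36.8% held the 36.6% of its Eryth2, and in RW 2 and the aJ1aJ2 samples it was not. These shares moved with the few cells just under the limit. With the limit at 1% Hbb-bt was 10.1% in RW 2 and 9.60% to 12.9% in the other samples, and in 9 of 9 samples it still lay between the sample's own Eryth1 and Eryth2. The alpha share was then 31.2% to 34.4% in RW, 31.7% to 35.7% in aJ1aJ2 and 27.6% to 28.2% in aN1aN2, below both erythroid labels in 9 of 9 samples.

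The spread of free globin over labels was read as the share of cells with at least 1 globin UMI after thinning each cell to 500 UMIs, without the 29 cells. In Th1, the main thyrocyte label, the share was 8.38%, 9.52% and 6.21% in RW, 5.56%, 11.5% and 14.2% in aJ1aJ2, and 31.6%, 50.8% and 51.6% in aN1aN2. In EC1 it was 13.2%, 17.4% and 8.77%, then 12.4%, 17.3% and 23.1%, and 35.3%, 29.6% and 53.4%. In both labels every aN1aN2 sample lay above every other sample by this share. Counted as UMIs per cell without thinning, globin in EC1 was 3.55, 3.40 and 2.31 in RW and 3.78, 5.50 and 2.96 in aJ1aJ2. It was 3.78, 4.85 and 5.58 in aN1aN2, above RW but overlapping aJ1aJ2. EC1 cells of aN1aN2 were shallower (median 2469 to 3427 UMIs, against 3445 to 4968 in the other samples). Without thinning, 91.8% of all Th1 cells had a globin UMI.

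Some labels were high in RW too. EC4 had 31.2%, 47.6% and 10.1% in RW, 9.30%, 33.3% and 37.7% in aJ1aJ2, and 54.5%, 62.9% and 71.7% in aN1aN2. Th3 had 32.6%, 37.3% and 12.4%, then 7.94%, 39.4% and 28.2%, and 52.8%, 61.0% and 58.1%. Over all samples the share was 64.2% in Th2 and 19.1% in Th1. Among the labels with at least 10 cells in all samples of both groups, every aN1aN2 sample lay above every RW sample in 8 of 9 (not in Th2) and above every aJ1aJ2 sample in 8 of 9 (not in SM). The aJ1aJ2 and RW samples were apart in 0 of 9. By the percent of UMIs from globin in place of the share of cells, aN1aN2 lay above RW in 6 of 9 labels, above aJ1aJ2 in 6 of 9, and aJ1aJ2 above RW in 1 of 9. All labels of a sample come from the same library, so these counts of labels are not separate observations.

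**Figure D5:**
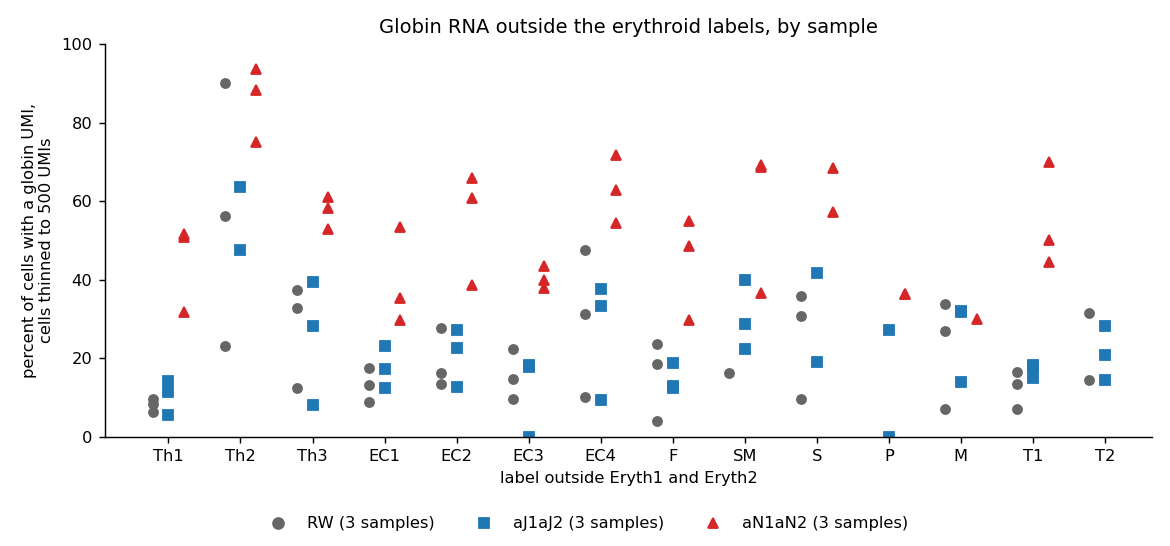
Percent of cells with at least 1 globin UMI after thinning each cell to 500 UMIs, by label (those with at least 10 cells in a sample) and sample, colored by group, without cells over 10% globin. In Th1 the aN1aN2 samples sit between 31.6% and 51.6%, above RW at 6.21% to 9.52% and aJ1aJ2 at 5.56% to 14.2%.

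In edgeR's fit of all groups in the other labels, with the filter on low counts and at least 20 cells per sample, the 9 globin calls of aN1aN2 against RW and the 9 against aJ1aJ2 were all higher. That direction did not hold when single samples were left out: against RW 1 of 9 calls was lower without RW 1 and 1 of 9 without RW 3, and against aJ1aJ2 3 of 7 were lower without aJ1aJ2 1, 4 of 13 without aJ1aJ2 3, 2 of 11 without aJ1aJ2 4 and 1 of 7 without aN1aN2 3. Some calls were also lower in a fit of only the 2 groups compared (1 of 16 and 1 of 10), with no filter (5 of 23 and 12 of 26), with the replicate number as a block (6 of 19 against RW) and with at least 50 cells (2 of 2 against aJ1aJ2). Against RW, 9 of 32 tests of members over 7 labels passed (28.1%), where 20% of all tests in those labels did. The calls lay in EC3 (Hba-a1 2.09, Hba-a2 1.55, Hbb-bs 2.10 and Hbb-bt 2.16 on the log2 scale, with 5.91% of genes called), in EC4 (Hba-a2 2.74, with 21.1% called) and in F (5.94 to 6.19, with 19.7% called). Against aJ1aJ2, 9 of 36 passed (25%, beside 12.9% of all tests): 2 in EC3 (1.14% of genes called), 4 in F (16.1%) and 3 in SM (3.75%). Between aJ1aJ2 and RW, 2 of 40 passed (beside 0.661%), Hba-a1 and Hba-a2 in EC4 (0.871% of genes called). Neither Alas2 nor Bpgm was called in any of these labels under these settings. The excess over all tests depended on the settings: against RW it was 4 of 32 (12.5%, beside 15.3%) with DESeq2 and 2 of 20 (10%, beside 23%) with at least 50 cells per sample, and against aJ1aJ2 2 of 36 (5.56%, beside 9.48%) and 2 of 20 (10%, beside 16%), so the members were called at a lower rate than all tests there.

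The few globin-rich cells moved these calls; they were set apart by their globin share itself, after the data were seen. Without them 18 of 31 tests against RW passed (58.1%, beside 20.2% of all tests), each higher in aN1aN2 by 0.95 to 2.74. These were 4 in EC1, 3 in EC2, 4 in EC3, 3 in EC4 and 4 in F, and in F the differences were 1.93 to 2.38. In EC1 the difference of Hbb-bs was -1.09 (SE 0.67, edgeR adjusted p = 0.296) with all cells and 1.53 (SE 0.20, adjusted p = 8.01e-06) without them, under the same filter. Against aJ1aJ2, 13 of 35 passed (37.1%, beside 13.1%), by 0.88 to 2.82. Between aJ1aJ2 and RW 3 of 39 passed (beside 0.773%), all in EC1, and the 2 calls in EC4 were lost. Without aN1aN2 2 the calls of aN1aN2 against RW went from 9 to 3 of 32 (beside 13.5% of all tests), and in F the differences of Hba-a1 and Hba-a2 from aJ1aJ2 went to -0.03 and -0.23.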

How the data were processed

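The authors deposited 1 table of UMI counts, genes by cells, together with a label for every cell of the 9 samples, and Cell Ranger and GRCm38 are named in the submitters' processing notes. Versions, the cell filter and any doublet removal are not given in the sources used here, and no doublet caller was run. The table held 10186 cells of at least 500 UMIs and 63121420 UMIs; 52403 of 52636 gene identifiers matched a symbol. Samples were grouped by the labels, and labels of cells are the authors' own.

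Counts were added up within each label of a sample (at least 20 cells per sample, at least 2 samples per group). They were tested with edgeR 4.0.16 in R 4.3.3 (limma 3.58.1), by the quasi-likelihood test in 1 fit of all groups, with TMM scaling, filterByExpr with a minimum count of 10 and Benjamini-Hochberg adjustment at 0.05. DESeq2 1.42.0 was an alternative. Others were scaling by size factors, by library totals or without the globins, no filter, only the groups compared, at least 50 cells, replicates left out, blocks, a range of UMIs per cell (also with all samples and with library totals) and removal of cells over 10% globin. Shares were compared by exact permutation tests, two-sided, over 3 against 3 samples. The p-values measure the spread between these pools. Wilson intervals are at 95% and cover counting error only.

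In simulated data for aN1aN2 against RW, the edgeR test recovered 26.7% of genes changed by a log2 of 1 in Eryth1 (164 genes) and 58.1% in Eryth2 (277 genes), and 92.9% of those changed by 2 in each. Of those changed by 0.5, 6.25% and 11.1% were recovered. The changed genes were drawn from all levels past the filter, with 1 common spread. These rates therefore do not give the chance of detecting a change in Alas2, which had 14645 UMIs in Eryth2.

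The members and all gene lists were chosen with earlier results of these data known. The genes named are all 6 members; per list, up to 3 called genes with the smallest adjusted p per comparison and up to 4 genes with the highest level over both erythroid labels; and the 5 genes most like the summed globins and most like Alas2 by Pearson correlation of log2(CPM + 1) over the 16 labels. Some genes that this rule names are not reported here. A few further genes at 0 or near it (Gata1, Klf1, Epor) and uncalled pathway genes were named after their values were seen. Promoters, motifs and transcript comparisons were computed in Python 3.11.15 from RefSeq and GENCODE.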

Additional observations from a re-analysis of the deposited data

How the results depend on the processing

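In all, 325 of 378 group and label results and 766 of 867 single-gene values kept their call or stayed near their value, including 27 and 103 small ones whose sign differed; the cause of the other changes was not tested. In Eryth2 the members called between aN1aN2 and RW were 4 of 6 with library totals (beside 7.53% of all genes). They were 2 of 6 in a fit of only these groups (13%) and 1 of 6 in cells of 2000 to 8000 UMIs (15.9%). Alas2 was among them in each of these settings, and the others are not named here. Against aJ1aJ2 they were 2 of 6 with library totals (7.17%) and 2 of 6 at 2000 to 8000 UMIs (25.8%). With replicates left out they were 0 to 2, with 2 of 6 without aJ1aJ2 1 (12%). At 2000 to 8000 UMIs with all samples they were 1 of 6 against RW (beside 19.6%) and 1 of 6 against aJ1aJ2 (29.3%). With library totals as well they were 1 of 6 against RW (17.4%) and 0 against aJ1aJ2 (20.7%). Library totals moved the median of all Eryth2 genes to -0.11 and -0.19 in these comparisons. In Eryth1 at 2000 to 8000 UMIs 2 of 6 members were called between aN1aN2 and aJ1aJ2 (beside 19.7% of all genes), and 0 with library totals (16.4%).

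In the other labels the members called between aJ1aJ2 and RW were 23 of 57 without a filter (beside 0.94%), 0 with DESeq2, 0 in a fit of only these groups and 2 to 4 when replicates were left out. With the series of the sample names as a block they were 2 of 32 (beside 2.71% of all tests). These were higher in aJ1aJ2 by 1.91 and 1.99, where the 2 calls without a block were 2.91 and 4.08. Between aN1aN2 and RW they were 23 of 42 without a filter (beside 7.06% of all tests), 4 of 32 with DESeq2 (15.3%), 16 of 30 in a fit of only these groups (23%), 2 of 20 with at least 50 cells (23%), 18 without cells over 10% globin and 3 to 10 when replicates were left out. Between aN1aN2 and aJ1aJ2 they were 26 of 47 without a filter (beside 4.45%), 2 of 36 with DESeq2 (9.48%), 2 of 20 with at least 50 cells (16%, both lower) and 4 to 13 when replicates were left out. With the replicate number as a block the count for aN1aN2 against RW was 19 of 29 (13 higher, 6 lower, beside 20.9% of all tests), and 0 members and 0 of 274 genes were called in Eryth2. The numbers are not said to pair samples, and RW 1 with aN1aN2 1 and RW 2 with aN1aN2 2 correlated by only -0.08 and -0.05.

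Of Eryth1 against Eryth2, values set against the UMIs of all other genes were 0.69 for Hba-a1, 0.76 for Hba-a2, 1.00 for Hbb-bs, 3.18 for Hbb-bt, 1.93 for Alas2 and 4.58 for Bpgm; at 2000 to 8000 UMIs Hba-a1 was -0.17 and Hbb-bt 1.72, and thinned Hbb-bs was 0.13. As a mean over cells, the globin share differed by 2.19 (aN1aN2 minus RW) and 5.37 (minus aJ1aJ2) points in Eryth1 and by 0.459 (minus RW) in Eryth2. The alpha share in Eryth2 differed by -0.618 from Hba-a1 and Hbb-bs only (aJ1aJ2 minus RW) and by -0.418 as a mean over cells (aN1aN2 minus RW). In the other labels the alpha share of aJ1aJ2 minus RW was 0.946 as a mean over cells, -0.972 from Hba-a1 and Hbb-bs only and 3.10 without cells over 10% globin. That of aN1aN2 was -3.51 and -6.46 minus RW, and -4.46 and -9.56 minus aJ1aJ2, as a mean over cells and without those cells. Without cells over 1% globin the differences were 0.849 (aJ1aJ2 minus RW), -4.73 (aN1aN2 minus RW) and -5.58 (minus aJ1aJ2). Among cells of at least 1000 UMIs the Eryth1 share of erythroid cells differed by -12.4 (aN1aN2 minus RW) and -9.25 points (minus aJ1aJ2).

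Directions turned for single genes at 2000 to 8000 UMIs: in Eryth1 to 0.36 for Hba-a1, 0.28 for Hba-a2, 0.25 for Hbb-bs, 0.54 for Hbb-bt and -0.83 for Bpgm (aN1aN2 minus RW) and 0.51 for Hbb-bs (minus aJ1aJ2); in Eryth2 to 0.21 for Hba-a2, 0.28 for Hbb-bt and 0.23 for Bpgm (minus RW), 0.35 for Hbb-bt and 0.49 for Bpgm (minus aJ1aJ2) and -0.19 for Hbb-bs (aJ1aJ2 minus RW). In that range with all samples, Hbb-bt in Eryth2 was 0.032 (minus RW) and 0.29 (minus aJ1aJ2) and Bpgm 0.45 (minus aJ1aJ2); with library totals as well, Bpgm was -1.13 in Eryth1 (minus RW), and in Eryth2 Bpgm was 0.17 and Hbb-bt 0.027 (minus aJ1aJ2). Bpgm in Eryth1 was -0.36 without a filter and -0.40 without aN1aN2 1 (minus RW). With replicates left out, Alas2 in Eryth2 ranged from -0.36 (without aJ1aJ2 1) to 0.16 and Hbb-bs from -0.18 to 0.083 (aJ1aJ2 minus RW), and in F Hba-a1 ranged from -0.034 (without aN1aN2 2) to 5.14 and Hba-a2 from -0.23 to 4.89 (aN1aN2 minus aJ1aJ2). Bpgm in Eryth1 rests on 0.212 UMIs per cell.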
